A study of Mus musculus with 6 samples.

Results

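The angiopoietin receptor genes Tek and Tie1, their ligand gene Angpt1, the vascular endothelial growth factor (VEGF) receptor genes Kdr and Flt1, their co-receptor gene Nrp1, the ligand gene Vegfa and the cell junction genes Esam, Cdh5 and Pecam1 were followed in cultured mouse megakaryocytes. Every probe set that the platform annotation assigns to 1 of these 10 genes alone was taken, which gave 19 of the 45101 probe sets on the array, for 10 of the 18194 genes it names. The 10 genes were selected on earlier results of these arrays, with the difference between the study's groups already known, so their differences are a description and support nothing by themselves. Expression was measured on 6 arrays. The 3 FOG1 ki/ki arrays, named FOG1-/- ki/ki in the labels, came from cultures with knocked-in alleles of FOG1, the GATA factor cofactor encoded by Zfpm1. The labels do not say what change these alleles carry. The 3 control arrays came from FOG1+/- cultures (replicates 1 and 2) and a FOG1+/+ culture (replicate 3). So 2 of the 3 controls also carry an allele labelled minus, and the labels do not say what that allele is. All cells were megakaryocytes grown from fetal liver in IMDM medium with thrombopoietin, the main cytokine of platelet production, and were collected on a serum albumin gradient. All mice had a mixed C57BL/6xSv129 background. The labels name neither the age nor the number of embryos behind a culture, so the spread between arrays may be partly technical.

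Tek (also called Tie2) is a receptor tyrosine kinase of endothelial and blood stem cells. Angiopoietin 1, the product of Angpt1, activates it, and the related receptor Tie1 has no established high-affinity ligand of its own and modulates Tek. VEGF-A signals through the kinase encoded by Kdr, while the Flt1 product binds it tightly with weak signalling and can act as a trap, and neuropilin 1 assists at the cell surface. Esam and Pecam1 encode immunoglobulin-type adhesion molecules of endothelial junctions that platelets carry as well, and Cdh5 encodes VE-cadherin, the cadherin of endothelial junctions. Platelets store angiopoietin 1 and VEGF-A in their alpha granules.

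Promoter windows of 300 bases, 250 before and 50 after the transcription start (RefSeq, build GRCm38.p6), were available for 6 of the 10 genes, Tek, Tie1, Kdr, Flt1, Vegfa and Nrp1. The set of windows used here held none for Esam, Angpt1, Cdh5 and Pecam1. Those of Tek, which stood higher in FOG1 ki/ki cells, and of Flt1 and Nrp1, which stood lower, are shown because FOG1 acts through GATA factors. Capitals mark GATAA, the core of GATA factor motifs, and AGGAAG, a core of ETS factor motifs, each searched on both strands with no overlap between them in these windows.
Tek, chr4:94739039-94739338, plus strand: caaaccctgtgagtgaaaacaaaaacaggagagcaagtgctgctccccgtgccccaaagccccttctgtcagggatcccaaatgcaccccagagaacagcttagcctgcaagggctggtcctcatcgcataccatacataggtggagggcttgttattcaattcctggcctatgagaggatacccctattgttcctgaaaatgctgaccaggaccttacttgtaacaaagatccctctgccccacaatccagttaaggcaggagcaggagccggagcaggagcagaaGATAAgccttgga
Flt1, chr5:147725962-147726261, minus strand: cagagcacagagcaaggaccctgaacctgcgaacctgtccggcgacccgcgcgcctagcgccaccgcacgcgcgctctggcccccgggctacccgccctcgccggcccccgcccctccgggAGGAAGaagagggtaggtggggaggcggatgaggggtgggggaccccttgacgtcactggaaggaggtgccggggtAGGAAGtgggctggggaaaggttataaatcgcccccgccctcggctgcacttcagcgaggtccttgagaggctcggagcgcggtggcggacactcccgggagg
Nrp1, chr8:128358823-128359122, plus strand: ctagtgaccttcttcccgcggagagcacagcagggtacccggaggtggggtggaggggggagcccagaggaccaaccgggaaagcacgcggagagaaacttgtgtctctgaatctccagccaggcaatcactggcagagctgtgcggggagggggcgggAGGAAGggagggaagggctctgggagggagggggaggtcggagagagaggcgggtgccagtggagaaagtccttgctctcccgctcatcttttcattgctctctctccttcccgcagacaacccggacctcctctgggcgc
The Tek window held GATAA once, at base 38 counted from the transcription start. The Flt1 window held AGGAAG at 129 and 53 bases before the start, and the Nrp1 window at 91 bases before it. Members and all genes with a window were counted by the first window listed for the gene. Among the 6 genes, GATAA was in the window of 2, Tek and Vegfa, and in that of 25.8% of all 27025 genes. Vegfa had 2 windows, of which only the first held it. AGGAAG was in the window of 3, Tie1, Flt1 and Nrp1, and in that of 35.1% of all 27025 genes. A match is a description of these letters and no evidence of binding.

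Values are microarray signals on a linear scale, and differences are on the scale log2(signal + 16), FOG1 ki/ki minus control, which understates the change of dim probe sets. Of the 19 probe sets, 17 lay in the brighter 50% of the array and were tested among 22518. The other 2 were dim on every array, a Cdh5 probe set (1.9 to 4.4) and an Nrp1 probe set (0.3 to 3.4). With limma, 0 of the 17 passed the adjusted threshold of 0.05, against 0.0666% of all probe sets tested (0.0355% higher and 0.0311% lower in FOG1 ki/ki), and 7 had an unadjusted p under 0.05, against 5.84%. With the replicate number as a block, 1 passed, Esam, which was lower in FOG1 ki/ki, against 0.524% of all in either direction and 0.28% lower, and 12 had an unadjusted p under 0.05, against 14.9%. The groups did not overlap for 6 of the 17, 2 higher and 4 lower in FOG1 ki/ki, against 5.35% and 4.9% of all probe sets tested. These shares are given beside the members without being read as a result, because this contrast helped to choose them. Of the 17, 6 stood higher and 11 lower, with a median difference of -0.61, against 0.026 over all probe sets tested. Of the 11 lower, 4 belong to Flt1 and 3 to Nrp1, so this median leans on repeated probe sets. Flt1 also gave 3 of the 4 lower without overlap and 4 of the 7 with an unadjusted limma p under 0.05. By gene, Tek, Angpt1, Kdr and Cdh5 stood higher, Tie1, Flt1, Nrp1, Esam and Pecam1 lower, and Vegfa was split.

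**Figure D1:**
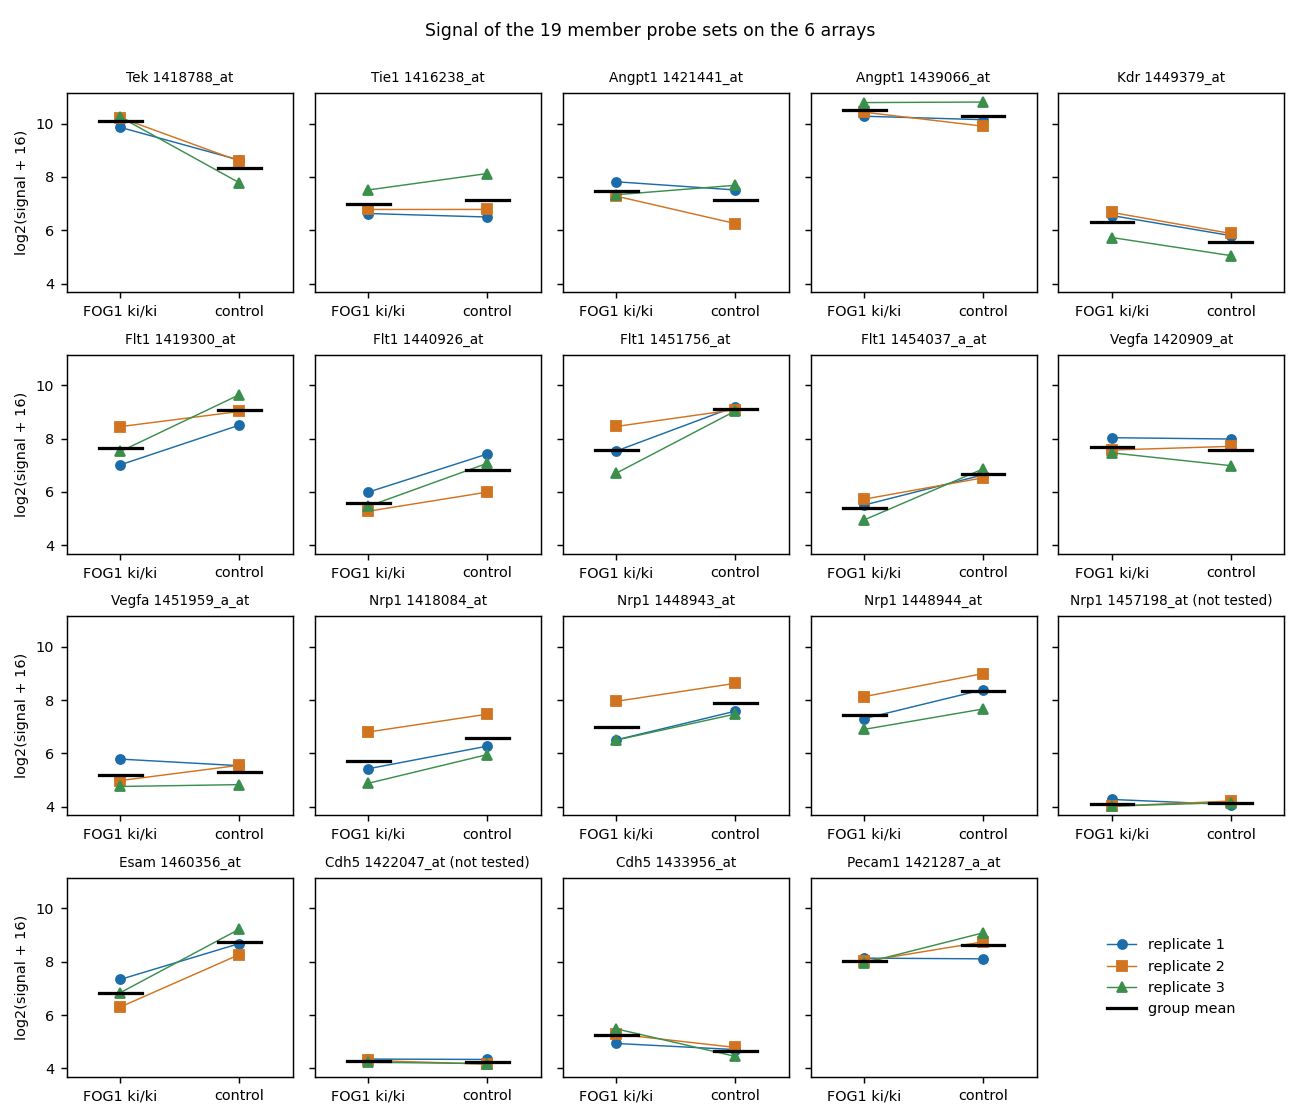
Signal of the 19 probe sets as log2(signal + 16) on the vertical axis, with FOG1 ki/ki left and control right. Each point is an array, lines join equal replicate numbers and black bars are group means; Tek lies higher on all 3 FOG1 ki/ki arrays, while Flt1, Esam and the 3 tested Nrp1 probe sets lie lower than the control of the same number.

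Tek (probe set 1418788_at) had the highest difference of the 17 probe sets. Its signal was 912, 1176 and 1194 on FOG1 ki/ki arrays 1, 2 and 3, against 381, 370.5 and 204 on control arrays 1, 2 and 3. Every FOG1 ki/ki array was above every control array, and the lowest control was the FOG1+/+ array. The means were 1094 ± 158 in FOG1 ki/ki cells and 319 ± 99.4 in controls (SD, n = 3 each), a ratio of 3.43. The log2 difference was 1.77 (SE 0.27), with limma adjusted p = 0.0988, and with the block adjusted p = 0.0534, both short of the threshold. Within replicate numbers 1, 2 and 3 it was 1.22, 1.62 and 2.46. With the block and a single probe set per gene Tek passed (limma adjusted p = 0.0437), as 1 of 94 passing among 11260 tested. That fit was added after seeing the data.

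Tie1 (1416238_at), the partner receptor of Tek, had overlapping groups. Its signal was 83.1, 94.1 and 167 in FOG1 ki/ki cells, against 74.5, 94.2 and 264 in controls. It followed the replicate number, highest on array 3 of both groups and almost equal on both arrays numbered 2. The log2 difference was -0.16 (SE 0.47, limma adjusted p = 0.9999), and its sign turned to 0.33 without control replicate 3, the FOG1+/+ array.

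Angpt1, the ligand gene, was measured by a bright (1439066_at) and a dimmer probe set (1421441_at). The bright one read 1224, 1361 and 1751 in FOG1 ki/ki cells, against 1117, 942 and 1776 in controls. The dimmer one read 210.0, 140 and 145 in FOG1 ki/ki cells, against 167, 60.4 and 190.2 in controls. The groups overlapped for both, and both were higher in FOG1 ki/ki within numbers 1 and 2 and lower within number 3. Their log2 differences were 0.21 (SE 0.25) and 0.33 (SE 0.42), with limma adjusted p = 0.9999 each. The difference of the dimmer probe set turned to -0.12 without control replicate 2.

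Kdr (1449379_at), the main signalling receptor of VEGF-A, was dim. It read 78.0, 86.0 and 37.1 in FOG1 ki/ki cells, against 39.8, 43.0 and 17.2 in controls. Each FOG1 ki/ki array lay above the control of the same number by a similar amount, and the groups still overlapped because both arrays numbered 3 were low. The log2 difference was 0.74 (SE 0.37, limma adjusted p = 0.98, blocked adjusted p = 0.173), and within numbers 1, 2 and 3 it was 0.75, 0.79 and 0.68.

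Flt1, the other VEGF-A receptor gene, stood lower in FOG1 ki/ki cells on all 4 of its probe sets and within all 3 replicate numbers, so that 12 of 12 differences were below 0. The probe set 1451756_at read 169, 334 and 88.2 in FOG1 ki/ki cells, against 571, 526 and 507 in controls. The probe set 1419300_at read 114, 333 and 167 in FOG1 ki/ki cells, against 347, 501 and 783 in controls. The highest FOG1 ki/ki array of both, number 2, was still below the lowest control. The dimmer probe set 1454037_a_at read 29.5, 37.0 and 14.9 in FOG1 ki/ki cells, against 83.6, 76.3 and 100.4 in controls. The probe set 1440926_at read 47.7, 22.8 and 28.2 in FOG1 ki/ki cells, against 155, 47.7 and 119 in controls, with the highest FOG1 ki/ki array equal to the lowest control. The log2 differences of 1451756_at, 1419300_at, 1454037_a_at and 1440926_at were -1.54 (SE 0.41), -1.39 (SE 0.43), -1.28 (SE 0.30) and -1.25 (SE 0.42). None of the 4 passed, with limma adjusted p from 0.291 to 0.597, and from 0.103 to 0.116 with the block. The difference was smallest within number 2 for each probe set, between -0.57 and -0.80, and largest within number 3, between -1.61 and -2.33. These 4 probe sets report on the same gene and are not independent of each other.

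Nrp1, the co-receptor gene, stood lower within every replicate number on its 3 tested probe sets. The probe set 1448944_at read 142, 264 and 104 in FOG1 ki/ki cells, against 320, 493 and 187 in controls. The probe set 1448943_at read 75.1, 232 and 74.6 in FOG1 ki/ki cells, against 176, 380 and 162 in controls, and 1418084_at read 27.1, 95.9 and 13.5 in FOG1 ki/ki cells, against 61.4, 162 and 46.2 in controls. Array 2 was the highest of both groups on all 3, which made the groups overlap. The log2 differences were -0.90 (SE 0.43), -0.91 (SE 0.49) and -0.86 (SE 0.57), with limma adjusted p of 0.937 or above, and none passed with the block either (adjusted p = 0.0794, 0.0985 and 0.144). Within replicate numbers the 9 differences lay between -1.08 and -0.67.

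Vegfa, the ligand gene, did not separate the groups. The brighter probe set, 1420909_at, read 246, 174 and 160.4 in FOG1 ki/ki cells, against 237, 193 and 111 in controls. The dimmer probe set, 1451959_a_at, read 39.3, 15.7 and 11.2 in FOG1 ki/ki cells, against 30.6, 31.1 and 12.5 in controls. Their log2 differences had opposite signs, 0.13 (SE 0.34) and -0.13 (SE 0.35), and limma gave adjusted p = 0.9999 for each.

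Esam (1460356_at), which encodes an adhesion molecule shared by endothelial junctions and platelets, had the lowest difference of the 17. Its signal was 146, 63.0 and 98.7 in FOG1 ki/ki cells, against 394, 292 and 580.3 in controls. Every FOG1 ki/ki array was below every control array, and the FOG1+/+ control was the highest of all. The means were 102 ± 41.4 in FOG1 ki/ki cells and 422 ± 146 in controls (SD, n = 3 each), so that the control mean was 4.12 times the FOG1 ki/ki mean. The log2 difference was -1.89 (SE 0.37), with limma adjusted p = 0.187, and with the block Esam fell (adjusted p = 0.0439). Within numbers 1, 2 and 3 the difference was -1.34, -1.96 and -2.38. Without both arrays numbered 2 the blocked call was lost (adjusted p = 0.092).

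Pecam1 (1421287_a_at), another adhesion gene shared by platelets and endothelium, read 265, 242 and 231 in FOG1 ki/ki cells, against 259, 412 and 525 in controls. The FOG1 ki/ki arrays lay close together while the controls spread widely. The log2 difference was -0.61 (SE 0.29, limma adjusted p = 0.93), made up of 0.026, -0.73 and -1.13 within numbers 1, 2 and 3. Cdh5, whose product defines endothelial junctions, was near background in both groups. Its brighter probe set, 1433956_at, read 14.6, 23.1 and 28.7 in FOG1 ki/ki cells, against 10.1, 11.6 and 5.88 in controls. All FOG1 ki/ki values were the higher, at signals comparable to the pseudocount of 16 (log2 difference 0.59, SE 0.24, limma adjusted p = 0.794). With Cdh5 this dim, the group is called by its genes here and not as an endothelial signature.

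**Figure D2:**
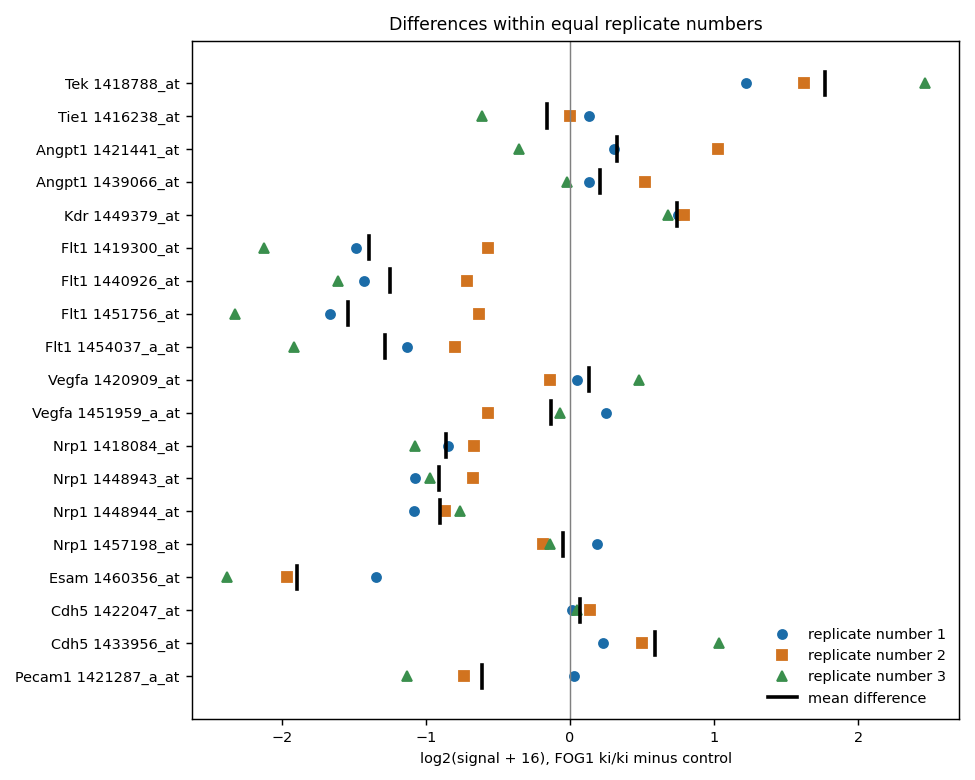
Difference in log2(signal + 16), FOG1 ki/ki minus control, on the horizontal axis for each of the 19 probe sets. Points are the differences within replicate numbers 1, 2 and 3 and black bars their mean; all 12 points of Flt1 and the 9 points of the 3 tested Nrp1 probe sets lie below 0, Tek and Kdr lie above 0, and Tie1, Angpt1 and Vegfa straddle it.

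The other genes of the angiopoietin and VEGF pathways were read from a list of 20. Of their 44 probe sets 20 were tested, 3 higher and 17 lower in FOG1 ki/ki, with a median difference of -0.59, against 0.026 over all probe sets tested. With limma 0 of the 20 passed, with or without the block. An unadjusted p under 0.05 was found for 4, against 5.84% of all probe sets tested, or 12 with the block, against 14.9%. Counted once per gene by the brightest probe set, 3 of 14 genes tested were higher and 11 lower, with a median of -0.30.

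Vegfc, a ligand of the lymphatic VEGF receptor, read 28.5, 27.4 and 5.87 in FOG1 ki/ki cells, against 56.3, 122 and 254 in controls, with no overlap (log2 difference -2.0, SE 0.52, limma adjusted p = 0.351). Sema3a, a secreted neuropilin ligand, was dim at 6.6, 6.8 and 3.97 in FOG1 ki/ki cells, against 17.2, 18.4 and 19.1 in controls (-0.65, SE 0.20, limma adjusted p = 0.499). Nrp2, the second neuropilin gene, read 35, 259 and 68.2 in FOG1 ki/ki cells, against 238, 617 and 141 in controls. It was lower within every replicate number and highest on array 2 of both groups, as Nrp1 was (-1.47, SE 0.70, limma adjusted p = 0.931). Plxna1, a plexin that pairs with neuropilins in semaphorin receptors, read 42.2, 191 and 80.1 in FOG1 ki/ki cells, against 155, 373.5 and 185 in controls, also highest on array 2 of both groups (-1.18, SE 0.51, limma adjusted p = 0.859).

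The other junction and adhesion genes lay on both sides of 0. Of 21 probe sets tested from 12 genes of a list of 20, 10 were higher and 11 lower, with a median of -0.11, or 0.082 over the 12 genes by their brightest probe set. With limma 0 of the 21 passed, with or without the block. An unadjusted p under 0.05 was found for 2, against 5.84% of all probe sets tested, or 7 with the block, against 14.9%. Cd99l2, a leukocyte and endothelial adhesion gene, read 7.4, 40.9 and 12.4 in FOG1 ki/ki cells, against 84.9, 51.6 and 103 in controls (log2 difference -1.47, limma adjusted p = 0.397). Its brighter probe set had the same sign at a smaller -0.56. Jup, which encodes plakoglobin, read 91.4, 166 and 133 in FOG1 ki/ki cells, against 91.2, 42.8 and 8.80 in controls (1.41, limma adjusted p = 0.693). Cdh2, which encodes N-cadherin, read 421, 641 and 419 in FOG1 ki/ki cells, against 234, 337 and 10.2 in controls (1.92, limma adjusted p = 0.894), with the lowest value on the FOG1+/+ array. Its brighter probe set read 1027, 1176 and 1041 in FOG1 ki/ki cells, against 641, 699.6 and 40 in controls, lowest on the same array. Afdn, an actin-binding junction scaffold, had a difference of -0.65 with overlapping groups.

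**Figure D3:**
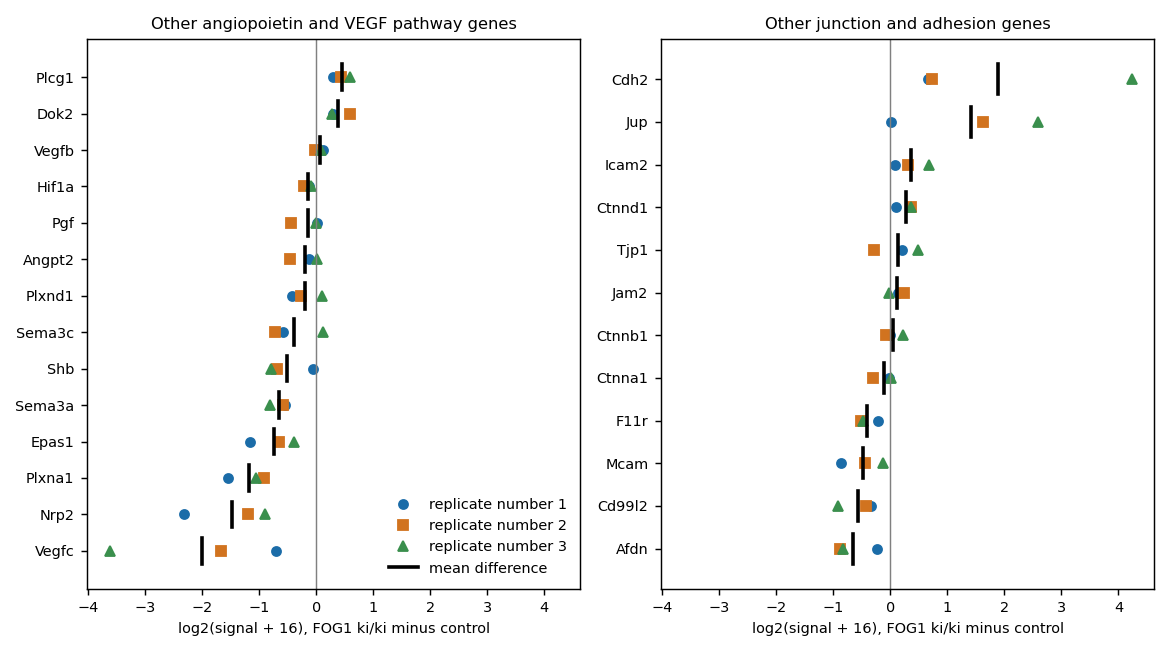
Difference in log2(signal + 16), FOG1 ki/ki minus control, on the horizontal axis for the tested genes of the other angiopoietin and VEGF pathway list (left) and the other junction and adhesion list (right), each by its brightest probe set. Points are replicate numbers and black bars the mean; 11 of 14 genes lie below 0 on the left and 5 of 12 on the right.

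Marker lists of the cell types a culture could hold were read beside these genes, and their part in the differences was not tested. They had 5 to 26 probe sets tested per list. With limma 0 of these passed, with 0 to 7 of a list at an unadjusted p under 0.05, against 5.84% of all probe sets tested. With the block 1 megakaryocyte and 1 mast cell marker passed, against 0.524% of all. Values are the signals summed over each gene's brightest probe set. Fewer cells of a type and less RNA per cell cannot be told apart in such bulk samples. Megakaryocyte markers, with 11 of 13 genes on the array all tested, summed to 19649 to 25778 in FOG1 ki/ki cells and 22552 to 28612 in controls, all 11 with a difference below 0. Pf4 and Itga2b, defining megakaryocyte genes, had signals of 3358 to 4105 and 1907 to 3309 in FOG1 ki/ki cells, against 3377 to 4156 and 1843 to 2867 in controls and so were well measured in every culture. Gp6, the collagen receptor gene of this list, fell with the block (log2 difference -1.35, limma blocked adjusted p = 0.0439).

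The 21 other endothelial markers summed to 1036, 1387 and 934 in FOG1 ki/ki cells, against 1409, 1775 and 1630 in controls, and the sums did not overlap. Without Clec4g they were 923, 1133 and 748 in FOG1 ki/ki cells, against 1204, 1314 and 818 in controls, which overlap, and leaving out any of 4 of the 21 genes (Calcrl, Clec4g, Ecscr or Emcn) gave overlap, a check chosen after seeing the data. Only 10 of the 21 had a tested probe set, 2 higher and 8 lower, and 8 of the 21 read under 16 on every array. Clec4g, a lectin gene of liver sinusoidal endothelium, read 113, 255 and 186 in FOG1 ki/ki cells, against 205, 461 and 812 in controls (log2 difference -1.21, limma adjusted p = 0.789). Stab1, a scavenger receptor gene of sinusoidal endothelium and macrophages, read 20.1, 299 and 147 in FOG1 ki/ki cells, against 137, 460.0 and 216 in controls, again lower within each number. Calcrl, an adrenomedullin receptor gene of this list, read 501, 539 and 312 in FOG1 ki/ki cells, against 632, 475.5 and 313 in controls, with overlapping groups (-0.053, limma adjusted p = 0.9999).

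Monocyte and macrophage markers, 18 of 18 tested, summed to 5754, 15855 and 10883 in FOG1 ki/ki cells, against 15450.4, 21025 and 11643 in controls, with 18 of 18 below 0. Fibroblast and stromal markers summed to 1037, 3059 and 163 in FOG1 ki/ki cells, against 1509, 7839 and 220.2 in controls, with 10 of 11 below 0. Both sums were highest on array 2 of each group, the arrays on which Nrp1, Nrp2 and Plxna1 were highest too. Hepatocyte markers summed to at most 370.0 on FOG1 ki/ki arrays and at most 359 on control arrays. Mast cell and basophil markers summed to 6408 to 6779 in FOG1 ki/ki cells, against 3351, 3241 and 259 in controls, with 8 of 8 tested genes above 0, and Ms4a2 of this list, a chain of the IgE receptor, rose with the block (log2 difference 2.77, limma blocked adjusted p = 0.0189).

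Stem and progenitor markers, a class of cells in which Tek is known, split evenly, with 6 genes higher and 5 lower of 11 tested. Gata2, which encodes a GATA factor active in progenitors, read 1145, 1262 and 1623 in FOG1 ki/ki cells, against 499.7, 528 and 296 in controls on its probe set 1450333_a_at (log2 difference 1.599, limma adjusted p = 0.113). The brighter Gata2 probe set, 1428816_a_at, had a smaller difference of 1.25 (limma adjusted p = 0.231). Mecom read 199, 120.2 and 389.8 in FOG1 ki/ki cells, against 71.4, 62.4 and 4.60 in controls (2.13, limma adjusted p = 0.464). Slamf1 on its probe set 1425569_a_at (-1.32, limma adjusted p = 0.393) and Cd34 (-0.70, limma adjusted p = 0.818) stood lower without overlap of the groups. The brighter Slamf1 probe set, 1425570_at, did so too, with a smaller difference of -0.49.

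**Figure D4:**
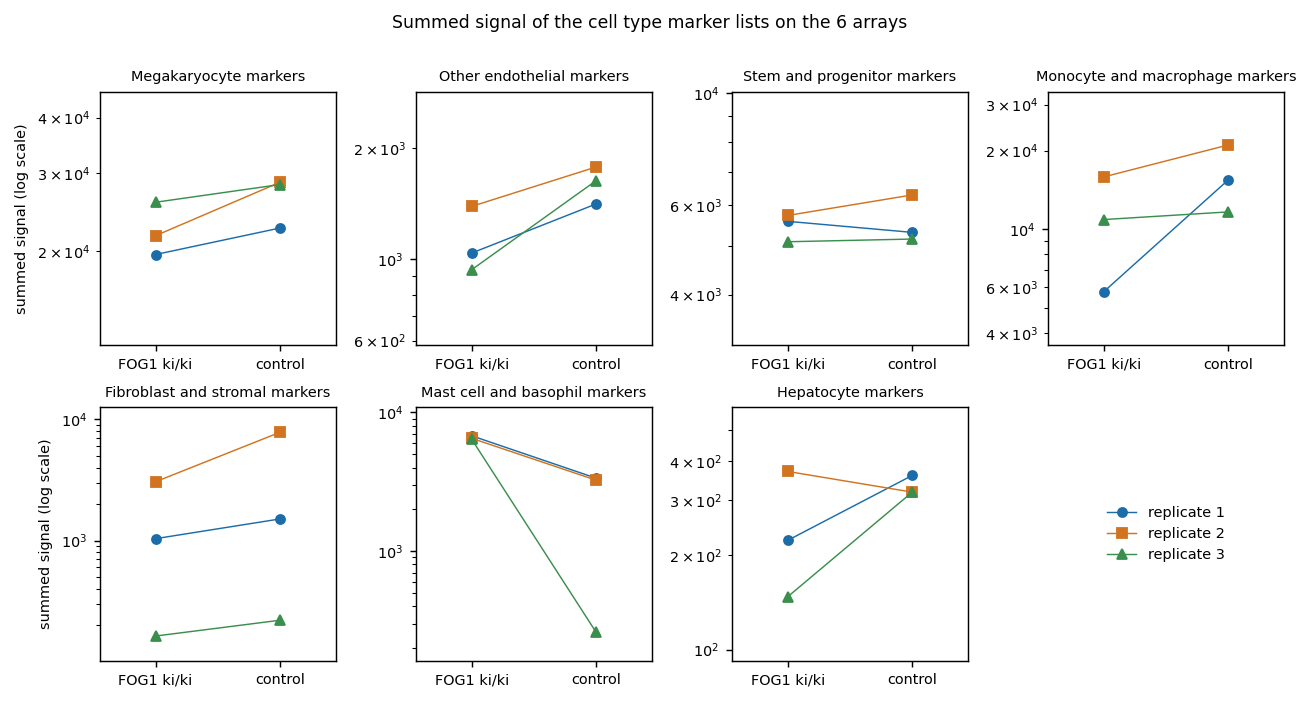
Signal summed over each list's brightest probe sets on the vertical axis (log scale, a range of its own in each panel), with FOG1 ki/ki left and control right. Points are arrays and lines join equal replicate numbers; macrophage and fibroblast sums are highest on array 2 of both groups, and the mast cell sums do not overlap between groups, nor do the endothelial sums unless Clec4g, for one, is left out.

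The genes whose signal ran most like that of Tek over the 6 arrays were sought among the brightest tested probe sets of 11259 other genes. They were Acss1 (Pearson r 0.996), which encodes a mitochondrial acetyl-CoA synthetase, the purinergic receptor gene P2ry14 (0.995), Angptl4 (0.992), which encodes an inhibitor of lipoprotein lipase, Mex3b (0.991) and Abi3 (0.986). For Esam they were the ADP receptor gene P2ry1 (0.987), Pdcd10 (0.985), Stat5b (0.982), Dppa5a (0.976) and Nudcd3 (0.975). With 6 arrays in groups that separate for Tek and Esam, such values mainly pick genes that also separate the groups. All 10 did, against 10.2% of all probe sets tested, so their differences are a description. Acss1 read 489.5, 606 and 578 in FOG1 ki/ki cells, against 187, 216 and 109 in controls. With the block it rose (log2 difference 1.66, limma blocked adjusted p = 0.0496), where 0.524% of all probe sets tested passed. P2ry1 read 253, 172 and 205 in FOG1 ki/ki cells, against 404, 403 and 635 in controls, and did not pass (-1.12, limma blocked adjusted p = 0.0869).

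The 2 nearest protein-coding genes on each side of every member, by the order of genes in RefSeq GRCm38.p6, gave 40 neighbours, of which 29 were tested. Their median difference was 0.0016 and 0 passed with limma, against 0.0666% of all probe sets tested. With the block 1 passed, against 0.524% of all. It was Nrgn, which encodes the calmodulin-binding protein neurogranin and lies next to Vsig2, the neighbour of Esam on mouse chromosome 9. Nrgn read 365, 510.5 and 658 in FOG1 ki/ki cells, against 1163, 1519 and 1974 in controls (log2 difference -1.58, limma adjusted p = 0.126, blocked adjusted p = 0.0189). The gene between them, Vsig2, was dim at 5.0, 1.4 and 3.63 in FOG1 ki/ki cells, against 3.8, 20.6 and 21.9 in controls. The tested neighbours of Tek, Ift74 and Mysm1, differed by 0.38 and 0.067, and those of Flt1, Pan3, Pomp and Slc46a3, by 0.14, 0.072 and -0.73, none passing.

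Over the whole array, median signals were 5.93 to 12.3 in FOG1 ki/ki and 7.75 to 12.2 in controls, lowest on both arrays numbered 3. Signals of both arrays numbered 3 were deposited with more than 1 decimal, and those of the other 4 arrays rounded to 1. Whether their processing differed was not tested. With limma 8 probe sets rose and 7 fell of 22518 tested, or 55 and 63 with the block. Control replicate 1 read 807 for Xist and 2.5 for the Y-linked Eif2s3y, while FOG1 ki/ki replicate 1 read 2.4 and 1147, so these cultures differed in sex and the other 4 arrays resembled FOG1 ki/ki replicate 1. The FOG1+/+ genotype was present on control array 3 alone, where Tie1, Pecam1, Esam, both Angpt1 probe sets and the Flt1 probe sets 1419300_at and 1454037_a_at were the highest of the controls. Tek, Kdr, the Flt1 probe set 1451756_at, the tested Cdh5 probe set, both Vegfa and the 3 tested Nrp1 probe sets were the lowest there, and genotype and replicate number cannot be told apart.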

How the data were processed

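The authors deposited microarray intensities on a linear scale, 1 signal per probe set for each of 6 arrays. The submitters' processing notes name MAS5 without its version. Each array had a trimmed mean of 150 after removal of 2% at either end, the mark of global scaling, under which a change in total RNA per cell is not visible. RNA was amplified and biotin-labelled with NuGEN kits, per the labels' protocols. The genome build is not given in the sources used here. Precision is limited by the number of arrays.

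Of 45101 probe sets, 34958 had 1 gene symbol, and 34754 matched RefSeq by Entrez identifier with 0 symbols changed. The 64 control probe sets and the dimmer 50% by mean log2(signal + 16) were left out, and 22518 were tested with limma 3.58.1 in R 4.3.3 (eBayes with a trend, Benjamini-Hochberg, threshold 0.05), checked on simulated data. Other steps used matplotlib 3.10.9, scipy 1.17.1, numpy 2.4.6 and pandas 2.3.3 under Python 3.11.15. Same-numbered arrays deviated together from their group means (correlations 0.438, 0.648 and 0.597), so the numbers were read as pairs, with the block as an alternative fit. The members and the 10 lists were chosen with earlier results of these data known. Named were all members, up to 4 genes per list with the smallest unadjusted p and the 5 genes most like Tek and Esam. Chosen after their values were seen were Pf4, Itga2b, Calcrl, Ecscr, Emcn, the second probe sets of Cd99l2, Cdh2, Gata2 and Slamf1, and the genomic neighbours.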

Additional observations from a re-analysis of the deposited data

How the results depend on the processing

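The settings varied were the pseudocount (1 and 64), quantile normalization, median centring, the filter on dim probe sets, a single probe set per gene, the variance trend, the replicate block and the arrays left out. Of 353 member differences recomputed under them, 332 kept their direction and their side of the threshold, and 14 turned sign. The filter, the single probe set per gene, the variance trend and the block cannot change a difference, so its sign was fixed in those settings. The other 7 passed where the reported fit did not (Tek and Esam, with the block). Of these, only the Esam pass with all arrays and all tested probe sets came from a setting planned beforehand. No difference of Tek, Kdr, Flt1, Nrp1, Esam, Pecam1 or the tested Cdh5 probe set turned sign in these settings. The count over all probe sets, 15, was 24 with quantile normalization, 1 with no filter, 1 with the dimmer 75% left out, 118 with the replicate block, 94 with the block and a single probe set per gene, 0 to 3 with an array left out and 0 without both arrays of any number. In the 6 settings with 0 calls, 778 to 1260 probe sets had an unadjusted limma p under 0.05. The block with a single probe set per gene and the block without both arrays of a number were chosen after seeing the data. The block without both arrays numbered 1, 2 or 3 gave 611, 40 and 209, so these calls depend strongly on the pairs used. Of the members, 0 passed without the block in any setting. In the 19 settings with 0 member calls, 4 to 9 had an unadjusted limma p under 0.05. The 9 came from the block without both arrays numbered 2. With the block 1 passed, Esam, and 2, Esam and Tek, with a single probe set per gene or without both arrays numbered 1 or 3. With the block but without both arrays numbered 2, 0 passed. Of the other pathway and junction lists 3 probe sets, of Vegfc and Jup, passed when the block was used with both arrays numbered 1 left out, and 0 in the other 22 settings, with 1 to 19 at an unadjusted p under 0.05. With an array left out, Tie1 ranged from -0.48 to 0.33, the dimmer Angpt1 probe set from -0.12 to 0.59, the brighter Vegfa probe set from -0.16 to 0.34 and the dimmer one from -0.44 to 0.077. Without both arrays numbered 3, with or without the block, Tie1 was at 0.065 and the brighter Vegfa probe set at -0.044. Without both arrays numbered 2, with or without the block, the dimmer Angpt1 probe set was at -0.023 and the dimmer Vegfa probe set at 0.089. The median of the other pathway list stayed below 0 in all 22 settings (-0.78 to -0.12), and that of the junction list ranged from -0.15 to 0.09. The causes were not tested. Dim probe sets such as those of Cdh5 and Sema3a are limited by signal near background, and that of Kdr, at 17.2 to 86.0, was dim as well.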
